A study of Mus musculus with 2 samples.

Results

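CpG-poor promoters of protein-coding genes were examined for Gata3 binding in T helper 2 (TH2) cells. A promoter was taken as the window 500 bp either side of a gene's start (GENCODE M21, build GRCm38, chromosomes 1 to 19), 1001 bp in all, and it was counted as CpG-poor when the sequence held less than 0.4 of the CpG dinucleotides that its C and G content would give by chance (observed/expected CpG). This rule used the genome sequence and no read, and it chose 8133 of 20807 promoters. The members just inside the limit were *Gm45861*, *Trpt1* and *Lsmem1* (0.3998 each), and the genes just outside were *Cplx3* (0.400002), *Rhoj* (0.4004) and *Apold1* (0.4005). Of these 6, *Trpt1* was called bound, in a window that overlaps that of *Nudt22*, whose start is 14 bp away. Its call was lost under several alternatives given at the end.

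The data are 2 libraries of the same condition, numbered 1 and 2 in the labels, made from TH2 cells of mouse spleen expanded *in vitro*. The extraction protocol in the labels names ILC2 where the other fields and the study's methods name TH2 cells. The study's methods place its mouse lines on the C57BL/6 background and include a line with Cre driven by *Cd4*, and the deposited file names carry the word CD4cre, while the labels give no strain or genotype for these cells. Chromatin was precipitated with an antibody against Gata3 (D13C9) and tagmented on the beads (ChIPmentation). With 1 condition, and without a control precipitation, binding was read as the density of reads against the rest of the same library. The labels do not say whether the 2 libraries came from separate cultures or animals.

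Library 1 held 40526613 reads and library 2 held 24970952. ChIP-seq gives no expression with which to check the cell type. Over the D and J segments of the T cell receptor delta locus (chr14:54113468-54136837), which are deleted when the alpha locus rearranges, 7 and 4 reads were found, 0.0183 and 0.0170 of the library mean. Reads of all cells in the culture are pooled, and the share of cells with binding cannot be told apart from the strength of binding in each.

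Gata3 is the zinc finger transcription factor that directs CD4+ T cells to the TH2 fate, in which they secrete the cytokines of anti-helminth and allergic responses. It recognises short sequences with GATA at their core. Promoters with many CpGs mostly belong to genes that all cells use, whereas CpG-poor promoters belong largely to genes restricted to a tissue or cell state, such as cytokines, receptors of lymphocytes, odorant receptors and liver enzymes.

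The sequences under the highest signal show what was searched for. The motif is AGATAA or AGATAG or TGATAA or TGATAG on either strand (on the opposite strand it reads TTATCT or CTATCT or TTATCA or CTATCA), and it was present in 62.7% of all promoters of this length. Each stretch of 60 bp is read 5′ to 3′ on the gene's own strand from the reference sequence (GRCm38), and the capitals mark the motif. The first set shows immune genes, together with *Cish* and *Tespa1*, which had a motif within 100 bp of the 200 bp with most reads (the densest place). None of these stretches lies in an exon.
*Cish*, chr9:107295835-107295894, plus strand: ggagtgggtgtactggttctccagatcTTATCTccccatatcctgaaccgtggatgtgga
*Tespa1*, chr10:130322693-130322752, plus strand: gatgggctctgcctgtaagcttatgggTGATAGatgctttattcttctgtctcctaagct
*Ccr8*, chr9:120091867-120091926, plus strand: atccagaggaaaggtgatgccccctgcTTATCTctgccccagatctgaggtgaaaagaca
*Il13*, chr11:53634751-53634810, minus strand: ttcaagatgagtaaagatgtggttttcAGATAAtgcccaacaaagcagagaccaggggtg
*Lcp2*, chr11:34046763-34046822, plus strand: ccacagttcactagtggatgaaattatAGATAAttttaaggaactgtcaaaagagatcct
*Il6*, chr5:30013032-30013091, plus strand: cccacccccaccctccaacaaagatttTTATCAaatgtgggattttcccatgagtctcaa
*Il2*, chr3:37126313-37126372, minus strand: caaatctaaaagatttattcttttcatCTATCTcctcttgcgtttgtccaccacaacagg

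The second set shows the densest place of called promoters with no motif within 100 bp of it, in *Capns1* (in an intron), *Arhgdib* and *Fasl* (both upstream of the start). These stretches therefore hold no capitals. The nearest motif lay 470 bp from the densest place of *Capns1* and 112 bp from that of *Arhgdib*, just past the limit. The window of *Fasl* holds no motif.
*Capns1*, chr7:30198551-30198610, minus strand: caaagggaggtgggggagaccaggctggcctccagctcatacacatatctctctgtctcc
*Arhgdib*, chr6:136941939-136941998, minus strand: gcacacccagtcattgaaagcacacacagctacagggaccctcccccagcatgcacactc
*Fasl*, chr1:161788725-161788784, minus strand: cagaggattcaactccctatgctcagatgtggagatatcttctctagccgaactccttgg
The sequence upstream of *Fyb* is of another kind, a tandem repeat that gives the window 19 copies of the motif.
*Fyb*, chr15:6522484-6522543, plus strand: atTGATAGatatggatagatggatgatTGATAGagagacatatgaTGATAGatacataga

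Few CpG-poor promoters were called bound. The call required, in both libraries, a one-sided exact Poisson test passed at a q of 0.01 (Benjamini-Hochberg over all 20807 windows) and at least 2-fold more reads than the background, the background being the higher of the library mean and the mean 1 to 10 kb either side of the start. By this rule 326 of 8133 CpG-poor promoters were called, 4.01% (95% exact binomial interval 3.59 to 4.46), against 11.4% of all protein-coding promoters and 16.1% of the 12674 others. In library 1 alone 484 were called (5.95%, against 14.7% of all promoters) and in library 2 alone 465 (5.72%, against 17.4%). The 326 are 67.4% of the calls of library 1 and 70.1% of those of library 2. A window that was not called is not shown to lack binding.

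The share was higher at higher CpG content within the CpG-poor promoters as well. It was 1.91% of the 1679 with observed/expected CpG below 0.1, 2.85% from 0.1 to 0.2, 4.96% from 0.2 to 0.3 and 7.66% of the 1397 from 0.3 to 0.4. It was 9.49% in the next step and reached 19.2% from 0.7 to 0.8. Median GC content also was higher from step to step, at 41.4%, 45.2%, 48.6% and 50.3% in the 4 CpG-poor steps. Whether the share followed CpG or GC content was not tested. Only 62% and 74.2% of the windows in the 2 lowest steps were at least 90% unique, and in such windows the shares of the 4 CpG-poor steps were 3.07%, 3.70%, 5.59% and 8.65%. The neighbouring steps below 0.1 and from 0.1 to 0.2 have overlapping intervals (1.31 to 2.68 and 2.28 to 3.51), while those from 0.2 upwards within the CpG-poor promoters do not overlap (4.06 to 5.99 and 6.32 to 9.18).

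**Figure D1:**
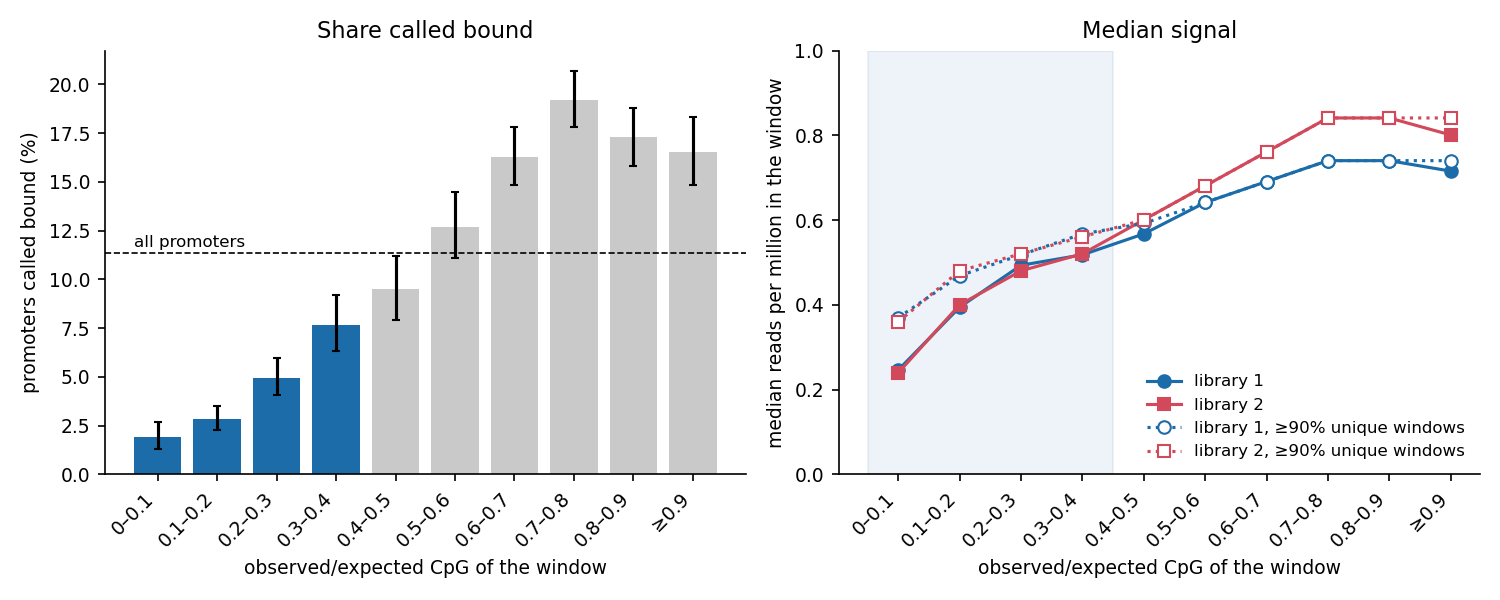
Promoters by observed/expected CpG of the window in steps of 0.1. Left, the percent called bound in both libraries (bars, CpG-poor steps in blue, with 95% exact binomial intervals; the dashed line is the share over all promoters). Right, the median RPM (reads scaled to the size of the library) in the window, with CpG-poor steps shaded, in each library, over all windows (filled) and over windows at least 90% unique (open). The share called goes from 1.91% to 7.66% across the CpG-poor steps and to 19.2% at its highest.

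The signal, given as RPM (reads in the window scaled to the size of the library on chromosomes 1 to 19, X and Y), was lower in CpG-poor promoters too. Their median was 0.420 RPM in library 1 and 0.441 in library 2, against 0.691 and 0.761 in the other promoters. Among the 326 called it was 2.05 and 1.76 RPM, with a range of 0.815 to 16.3 and 0.841 to 18.5, and among the 7807 not called it was 0.420 and 0.401 RPM. The 2038 called among the other promoters had medians of 1.73 and 1.56 RPM, below those of the called CpG-poor promoters. Called and not called windows overlap in RPM, since the call also depends on the reads around the window.

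Reads can be placed only in sequence that occurs once, and CpG-poor windows held more repeats. On average 88.3% of their 50-bp stretches were unique on the chromosomes, against 97.9% in the other promoters. Of the 812 members with no read in either library, 747 were at most 50% unique or had over 50% of their stretches in a patch sequence of the reference (an alternative copy of a locus that some versions of the assembly carry). All 77 members at least 90% unique on the chromosomes but with over 90% of their stretches in a patch had 0 reads, against 3 of 5677 with no stretch in a patch. Whether the authors' reference held these copies is not given in the sources used here.

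The windows without reads include immune genes. *Cd28* and *Icos*, the costimulatory receptors, had 0 and 0 reads, and so did *Il12rb1*, a receptor chain for interleukin 12, and *Ptprcap*, which binds the phosphatase CD45. *Ctla4*, the inhibitory counterpart of *Cd28*, had 1 read in each library with 60.4% of its stretches in a patch. For these genes the files give no measurement of binding at the start. In windows at least 90% unique with patches counted, 318 of 6165 CpG-poor promoters were called (5.16%), an alternative added after the data had been seen.

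The libraries ranked the promoters alike. Across the 8133 windows, which are not replicates and share mappability and base composition, the RPM of the 2 libraries had a Pearson correlation of 0.947 and a Spearman correlation of 0.822. Among the 326 called these were 0.959 and 0.878. The densest 200 bp of one library lay a median of 60 bp from that of the other in the called windows (66.6% within 100 bp), and 160 bp over all members.

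**Figure D2:**
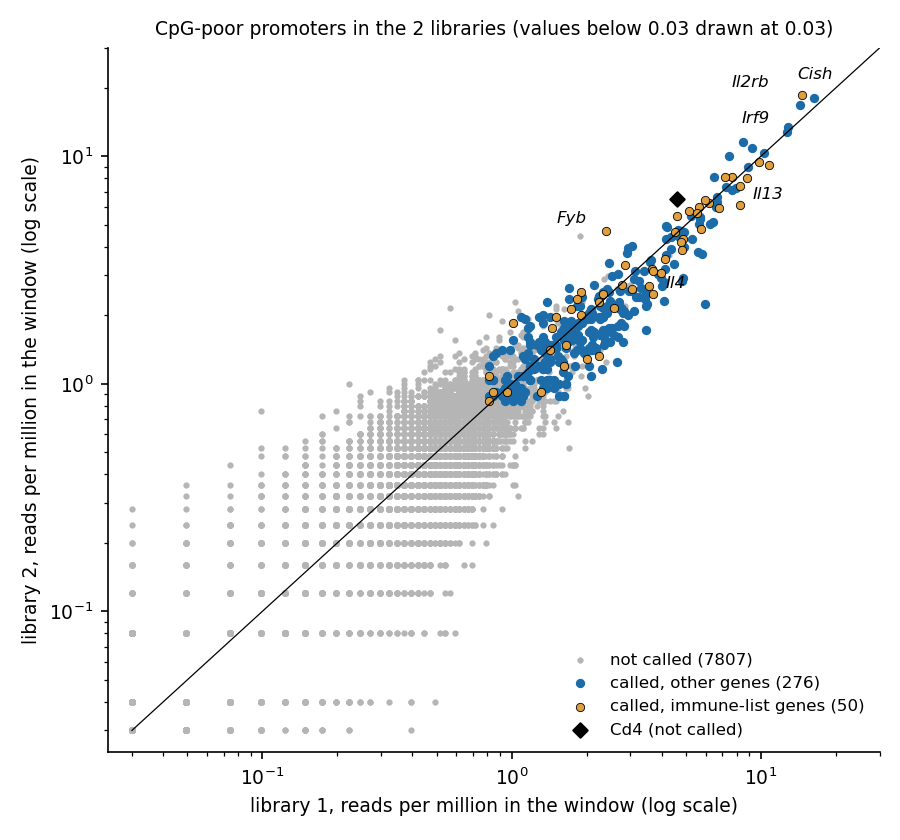
RPM in each CpG-poor promoter window in library 1 (x, log scale) and library 2 (y, log scale), with values below 0.03 drawn at 0.03. Grey points are the windows not called, blue the 276 called windows of other genes, orange the 50 called windows of immune-list genes and the black diamond *Cd4*. The called windows run along the diagonal up to *Cish*, *Il2rb* and *Irf9*.

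The highest signal lay at *Cish*, *Il2rb* and *Irf9*, with called promoters ordered by the lower RPM of the 2 libraries. *Cish*, whose product is induced by cytokines and dampens signalling of their receptors, had 16.3 RPM in library 1 (660 reads, 95% exact counting interval 15.1 to 17.6) and 18.1 RPM in library 2 (452 reads, 16.5 to 19.9), 7.32-fold and 8.67-fold over the background. *Il2rb*, a signalling chain of the receptors for interleukin 2 and interleukin 15, had 14.7 and 18.5 RPM, 15.2-fold and 17.98-fold. *Irf9*, the DNA-binding part of the complex that interferons activate, had 14.4 and 16.9 RPM, 23.6-fold and 27.04-fold, with its densest place 390 bp after the start. All 3 stood above every other CpG-poor promoter in both libraries.

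Below these came *Nr3c1*, the glucocorticoid receptor, with 12.9 and 13.5 RPM, and *Capns1*, the small subunit of the calpain proteases, with 12.8 and 12.8 RPM. *Trex1*, an exonuclease that clears DNA from the cytosol, had 10.3 and 10.3 RPM with no motif in its window. *Il9r*, the receptor for interleukin 9, had 9.83 and 9.42 RPM, 7.12-fold and 6.11-fold. Around *Il9r* the place with most reads within 5 kb lay outside the window, 4000 bp after the start.

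*Tespa1*, which takes part in signalling in developing T cells, had 9.26 and 10.9 RPM. *Lcp2*, the adaptor SLP-76, had 8.22 and 6.13 RPM, 4.30-fold and 2.98-fold, and *Arhgdib*, a regulator of small GTPases in blood cells, had 6.17 and 6.25 RPM, both of the T cell signalling list. *Tnfsf8*, the ligand of CD30, had 8.76 and 8.05 RPM, and *Tnfrsf26*, a member of the TNF receptor family, had 7.16 and 8.13 RPM.

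*Ccr8*, a chemokine receptor found on TH2 cells, had 7.65 and 8.13 RPM, 7.15-fold and 7.03-fold. *Il13*, the only member of the cytokine list among the 25 highest, had 8.25 and 7.37 RPM (334 and 184 reads), 4.44-fold and 3.75-fold. At both genes denser places lay upstream of the window, at -800 bp from the start of *Ccr8* and -1600 bp from that of *Il13*, and both had a motif close to the densest place inside the window.

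A further 10 of the 25 included genes of other tissues. *Olr1*, a receptor for oxidised lipoprotein, had 8.91 and 9.01 RPM, and *Tnnt3*, a troponin of fast skeletal muscle, had 7.26 and 7.33 RPM, 9.83-fold and 10.9-fold. *Rdh1* (7.92 and 7.29 RPM) and *Rdh16f1* (7.65 and 7.09 RPM), retinol dehydrogenases with overlapping windows, share the same reads and count as 1 place. *Rasgrp4*, an activator of Ras in mast cells, had 7.43 and 10.0 RPM. The odorant receptors *Olfr433* (8.49 and 11.6 RPM) and *Olfr525* (6.69 and 6.29 RPM) had their densest place 400 bp after the start, at the edge of the search, and the place with most reads within 5 kb lay just at or past the window's end. *Tapbpl*, a relative of the peptide loader tapasin, had 6.69 and 6.65 RPM, *Fxyd4*, a regulator of the sodium pump, 6.47 and 8.13 RPM, and *Atpaf2*, an assembly factor of the mitochondrial ATP synthase, 6.59 and 5.97 RPM.

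**Figure D3:**
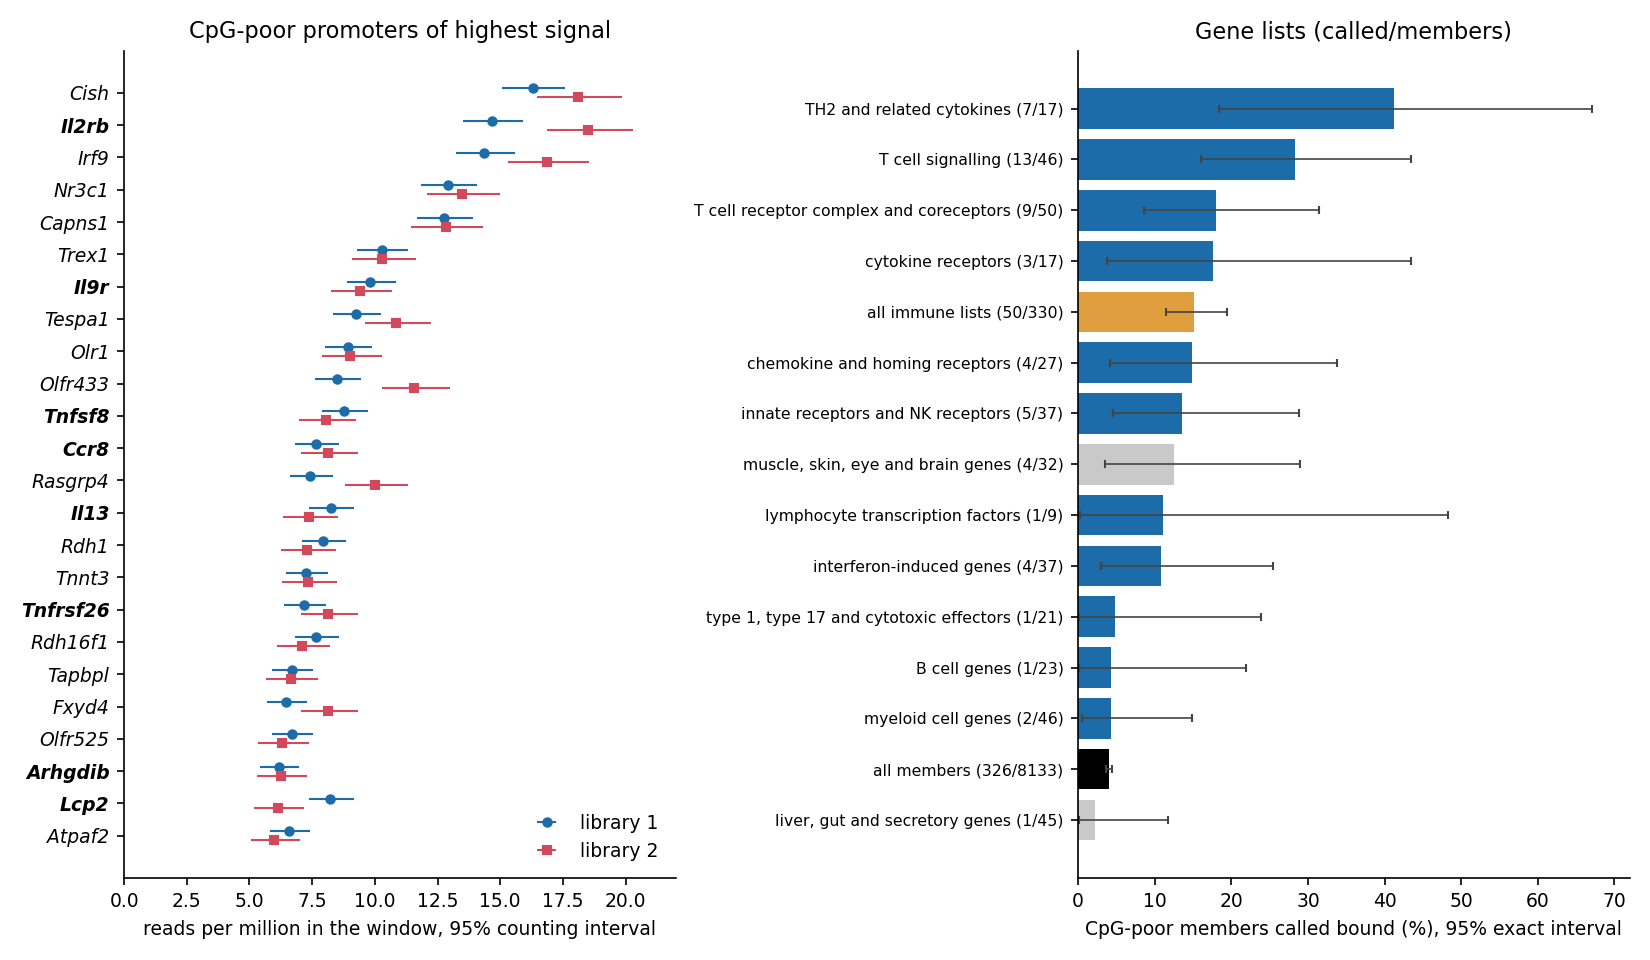
Left, the CpG-poor promoters of highest signal (1 of the 25 is not shown; names of immune-list genes in bold), with the RPM in library 1 and library 2 and 95% exact counting intervals; they run from *Cish* (16.3 and 18.1) down to *Atpaf2* (6.59 and 5.97). Right, the percent of CpG-poor members of each gene list called bound, with 95% exact binomial intervals; the TH2 and related cytokines have the highest share (41.2%).

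Members of the immune lists made up 31 of the 100 highest promoters. The lists do not hold every immune gene, and *Cish*, *Irf9*, *Tespa1* and, named after their values had been seen, *Tnfsf4* (the ligand of OX40), *Cd40* and *Osm* (oncostatin M) were among the 100 highest outside them. The 11 immune lists, which include genes of myeloid and B cells, held 330 CpG-poor members, of which 50 were called, 15.2% (95% exact interval 11.5 to 19.5), while 276 of the 7803 members in no immune list were called, 3.54%. Both shares stand beside 11.4% for all promoters. The lists were chosen with results of these data known, so this share and those of the single lists below are a description. Their intervals treat promoters as independent, which they are not, and serve as no test. Immune-list genes were 9 of ranks 1 to 25, 10 of ranks 26 to 50, 12 of ranks 51 to 100, 9 of ranks 101 to 200 and 10 of ranks 201 to 326.

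Cytokine genes had the highest share of the 13 lists, with 7 of 17 members of the TH2 and related cytokines called (41.2%, interval 18.4 to 67.1). This stands beside 4.01% of all CpG-poor and 11.4% of all promoters. Median signals over the list were 0.889 and 1.16 RPM, against 0.420 and 0.441 over all CpG-poor promoters. Besides *Il13* those called were *Il21*, a cytokine of helper T cells for B cells (5.75 and 4.81 RPM), *Tnf* (4.84 and 3.89 RPM, no motif in the window), *Il6* (4.12 and 3.53 RPM, 10.2-fold and 8.75-fold), *Il4*, *Il2* (2.77 and 2.72 RPM) and *Il33* (1.65 and 1.48 RPM). *Il4*, the cytokine that drives TH2 differentiation, had 3.70 and 3.13 RPM but was only 2.42-fold and 2.1-fold over its surroundings, with a denser place 1100 bp after the start, and its call was lost with a q of 1e-10, with a 3-fold limit and with a background of 5 kb. *Il5*, the eosinophil growth factor made by TH2 cells, was not called, with 0.765 and 1.28 RPM, 0.628-fold and 0.953-fold over its surroundings, although its window holds 2 motifs. The lowest was *Tslp*, a cytokine of epithelial cells (0.296 and 0.521 RPM).

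Among the effectors of other T cell types 1 of 21 was called, *Fasl*, the death ligand of cytotoxic cells (3.56 and 2.68 RPM, no motif in the window). *Lta*, lymphotoxin alpha, was second with 2.27 and 1.68 RPM and was not called, and *Gzme*, a granzyme, was lowest with 0.0741 and 0 RPM in a window 83.3% unique. The list's share of 4.76% stood near that of all CpG-poor promoters, and the call of *Fasl* was lost with a 3-fold limit and with windows of 1 kb either side.

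Of the cytokine receptors 3 of 17 were called (17.6%, interval 3.80 to 43.4, which includes the 4.01% of all CpG-poor and the 11.4% of all promoters), *Il2rb*, *Il9r* and *Il1rl1*, the receptor for interleukin 33 (2.57 and 2.16 RPM). *Il2ra*, the alpha chain of the interleukin 2 receptor, had 2.91 and 2.68 RPM, above the signal at rank 100 (2.32), and was not called because its surroundings were dense as well (1.75-fold and 1.71-fold). Of the chemokine and homing receptors 4 of 27 were called (14.8%, interval 4.19 to 33.7, which includes the 11.4% but not the 4.01%), among them *Ccr8*, *Ccr1* (5.95 and 6.41 RPM, 13.2-fold and 13.3-fold, with no motif in the window) and *Gpr171* (4.86 and 4.33 RPM). *Xcr1*, the lymphotactin receptor of dendritic cells, was lowest of these with 0.346 and 0.521 RPM.

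Genes of T cell signalling were called in 13 of 46 members (28.3%, interval 15.99 to 43.5), the highest number of any list. This share stands beside 4.01% of all CpG-poor and 11.4% of all promoters. The lists were chosen with results of these data known, and these shares are a description. Besides *Lcp2* and *Arhgdib* these included *Trat1*, an adaptor of the receptor complex (5.55 and 5.61 RPM), *Lax1*, an inhibitory adaptor (4.52 and 4.65 RPM), *Ptpn22*, a phosphatase that restrains the receptor (4.76 and 4.21 RPM), and *Dock2*, an exchange factor for Rac (3.65 and 3.21 RPM). *Fyb*, the adaptor ADAP, had 2.39 and 4.69 RPM, with the libraries further apart than at *Lcp2*, in the window with 19 repeated motifs. *Sla*, an adaptor that lowers receptor levels, was lowest with 0.346 and 0.721 RPM.

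The list of the T cell receptor complex and coreceptors also holds other surface molecules. Of its called members only *Cd3e* belongs to the complex itself. Of its 50 members 9 were called (18%, interval 8.58 to 31.4, beside 4.01% of all CpG-poor promoters and with the 11.4% of all promoters inside it). These were *Tnfsf8*, *Tnfrsf26*, *Ptprc*, which encodes CD45 (6.79 and 5.93 RPM), *Btla* (5.65 and 5.97 RPM) and *Havcr2* (3.97 and 3.09 RPM), both inhibitory receptors, *Cd7* (5.16 and 5.77 RPM), *Cd3e* (1.83 and 2.36 RPM), *Cd96* and *Cd226*. At *Ptprc* and *Btla* the place with most reads within 5 kb lay at 550 and -550 bp from the start, just outside the window.

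*Cd4* stood apart from the rest. Its promoter held 187 and 162 reads (4.62 and 6.49 RPM), 11.4-fold and 16.1-fold over the library mean, a signal that would place it among the 50 highest, but it holds no motif and was not called, because the gene's first 10 kb were denser still. From 1 to 10 kb downstream of the start there were 3556 and 2674 reads, 24.1-fold and 29.6-fold over the library mean, against 1.60-fold and 1.57-fold upstream. Relative to these surroundings the window had 0.887-fold and 1.03-fold. With the library mean alone as background *Cd4* was called. The deposited file names carry the word CD4cre and there was no control precipitation. Whether the reads over this gene reflect binding was not tested.

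The transcription factors were mostly outside the CpG-poor class, with 40 of 49 listed genes at higher CpG content, of which 4 were called, beside 16.1% of the other promoters. Of the 9 CpG-poor members *Runx1* was called (3.04 and 2.60 RPM), with its densest place 400 bp after the start. The share, 11.1%, has an interval of 0.281 to 48.2. This includes the 4.01% of all CpG-poor and the 11.4% of all promoters. *Batf*, an AP-1 family factor, had 1.58 and 1.84 RPM and passed 2-fold in library 2 only (1.62-fold and 2.29-fold), and *Ets1* was among the lowest with 0.420 and 0.280 RPM. *Gata3* itself (observed/expected CpG 0.481), *Itgav* (0.853) and *Itgb3* (0.691) are not CpG-poor. They were not called at their outermost annotated starts, with 1.73 and 1.16, 1.01 and 1.68, and 0.716 and 0.721 RPM. Over their surroundings these were 1.43-fold and 1.24-fold, 0.677-fold and 1.22-fold, and 1.13-fold and 0.815-fold. The place with most reads within 5 kb lay outside each window, at -1300, -1300 and 3900 bp from the start. From Gata3 ChIP-seq the study reports binding at the *Itgav* promoter and inside the body of *Itgb3*. Sequence outside the windows was not examined for that report.

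Of the innate and NK receptors 5 of 37 were called (13.5%, interval 4.54 to 28.8), beside 4.01% of all CpG-poor and 11.4% of all promoters, led by *Hcst*, the signalling adaptor DAP10 (4.59 and 5.45 RPM), and *Tlr9*, a sensor of DNA (2.86 and 3.33 RPM). Of the interferon-induced genes 4 of 37 were called (10.8%, interval 3.03 to 25.4, which includes both of these shares), led by the guanylate-binding proteins *Gbp5* (1.90 and 2.003 RPM) and *Gbp3* (1.46 and 1.76 RPM). Among the innate and NK receptors 20 members had windows at least 90% unique with patches counted, and the 5 called were among these (25%). Among the interferon-induced genes these were 11, and the 4 called were among them (36.4%). In windows of this kind 318 of 6165 CpG-poor promoters (5.16%) and 2319 of 18091 of all promoters were called. With so few members these 2 shares are a description only. In the 2 lists 2 and 7 members had no read in either library, the Schlafen genes *Slfn1* and *Slfn2* among the latter. *Klra9* (0 and 0.0401 RPM) and *Iigp1* (0.0494 and 0 RPM), also near the bottom, had windows 77.1% and 75.0% unique.

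The lists of genes that mark other blood cells or other tissues stood on either side of the 4.01% of all CpG-poor promoters. Of the myeloid genes 2 of 46 were called (4.35%), *Itgax*, which encodes CD11c (3.68 and 2.48 RPM, 9.08-fold and 5.69-fold), and *Epx*, eosinophil peroxidase (1.43 and 1.40 RPM), whose call was lost under 4 of the alternatives. Of the B cell genes 1 of 23 was called (4.35%), *Cr2*, while the highest, *Pou2af1* (1.58 and 1.48 RPM) and *Rag2* (1.78 and 1.40 RPM), were not, and *Cd22* was lowest (0.247 and 0.521 RPM). *Ear2*, an eosinophil ribonuclease, had 0 reads in a window 43.8% unique. Of the liver, gut and secretory genes 1 of 45 was called (2.22%), and of the muscle, skin, eye and brain genes 4 of 32 (12.5%, above that share and beside 11.4% of all promoters, interval 3.51 to 28.99), which with *Tnnt3* were *Ckm*, *Gh* and *Lor*.

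Large families of tissue-restricted genes had few or no promoters called, some of them in sequence that is not all unique. The median vomeronasal receptor window was 87.5% unique, and the family's median signal was 0.0741 and 0.0801 RPM. For the odorant receptors the medians were 100% unique and 0.321 and 0.321 RPM. Of 1124 odorant receptors 10 were called (0.890%) and of 326 vomeronasal receptors 2, while 0 of 96 keratins and keratin-associated proteins, 0 of 84 cytochromes P450, 0 of 57 serpins and 0 of 49 taste and trace amine receptors were. Beside 4.01% of all CpG-poor and 11.4% of all promoters, 6 of 30 interleukins (20%), 3 of 16 chemokine receptors (18.8%) and 8 of 67 CD antigens (11.9%) were called. Of other immune families, 1 of 28 chemokines (3.57%), 0 of 28 C-type lectins, 0 of 16 type I interferons, 0 of 9 granzymes and 0 of 9 leukocyte Ig-like receptors were called. Counts this small do not set these families apart from the 4.01% of all CpG-poor promoters. The median leukocyte Ig-like receptor window was 66.7% unique. Of the zinc finger proteins 8 of 95 were called (8.42%) and of the solute carriers 8 of 128 (6.25%). The families were sorted by gene symbol and overlap the lists above. With both receptor families left out, 4.70% of the CpG-poor promoters were called.

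A larger share was called among promoters with a GATA motif than among those without. Of the 1485 CpG-poor windows with no copy 32 were called (2.15%, 95% exact interval 1.48 to 3.03), and of the 6648 with a copy 294 (4.42%, interval 3.94 to 4.94). The share was 3.38% with 1 copy, 5.01% with 2, 4.35% with 3, 4.78% with 4 and 5.79% with 5 or more, so that beyond 2 copies the shares did not follow the number of copies. The same letters in reverse order, AATAGA or AATAGT or GATAGA or GATAGT, have the same base composition and gave 3.69% without a copy and 4.11% with one. Some of these share 5 letters with the motif (GATAGA with AGATAG, for example), so 1 stretch can count as both, and they were present in 58.4% of all promoters. In other promoters the share was 10.5% without a GATA motif and 21.5% with one.

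The position of the motif separated the promoters further. With a copy within 100 bp of the densest 200 bp, 194 of 2925 windows were called (6.63%, interval 5.76 to 7.60), and without one 132 of 5208 (2.53%). For AGATAA alone the share was 8.65% with a copy near. For the reversed letters it was 3.68% with and 4.14% without. The densest place was found with the same reads as the call, and the reversed letters show the share that this choice gives to letters of the same composition. The 812 windows with no read have no densest place and were given one at the edge of the search. They cannot be called, but they count among the windows with or without a motif near, here and below.

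GC content moved with the signal, and the windows were therefore divided into 3 groups by it. In the group with the lowest GC (25.5 to 42.9%) 3.46% of the windows with a motif near the densest place and 0.755% of those without were called, in the middle group 6.97% and 2.95%, and in the group with the highest GC (49.8 to 67.3%) 12.1% and 3.47%. With the reversed letters these were 1.79% and 2.16%, 4.79% and 4.22%, and 6.08% and 5.57%. The number of motifs in the window did not rank the promoters by signal. Across the 8133 windows its Spearman correlation with RPM was -0.0555 and -0.0828 in the 2 libraries. For GC content the correlation was 0.392 and 0.396, and for observed/expected CpG 0.342 and 0.332. With the fold over the background the number of motifs had 0.0173 and -0.0231. All are a description of windows that share base composition and mappability.

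**Figure D4:**
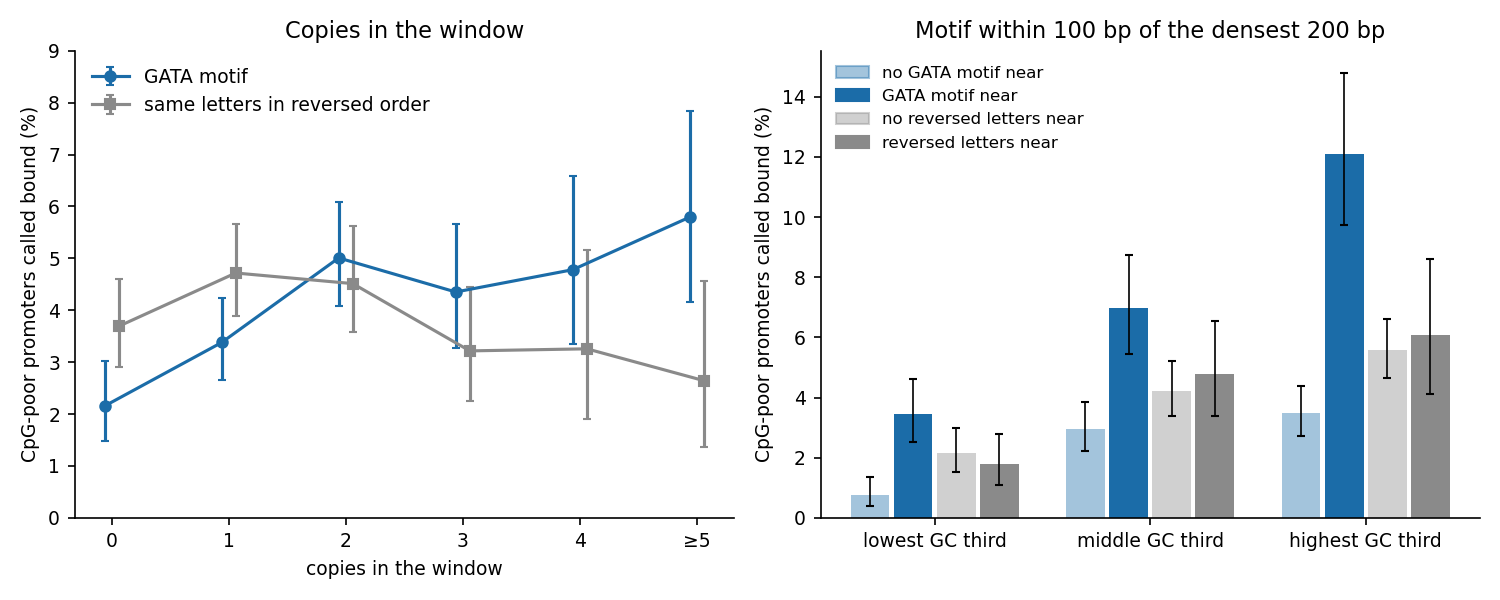
Percent of CpG-poor promoters called bound, with 95% exact binomial intervals. Left, by the number of copies in the window of the GATA motif and of the same letters reversed; with the GATA motif the share goes from 2.15% with none to 5.79% with 5 or more. Right, in 3 groups of GC content, with and without the motif or the reversed letters within 100 bp of the densest 200 bp; in the group of highest GC the share is 12.1% with a GATA motif near and 3.47% without.

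Most called promoters held a motif, and 59.5% held it near the densest place. A copy was present in the window of 90.2% of those called and 81.4% of those not called, and near the densest place in 59.5% and 35.0%. The latter was 24.8% over all promoters. For the reversed letters near the densest place the values were 26.1% and 28.5%. The median signal of the 194 called with a motif near was 2.17 and 1.82 RPM, of the 100 with a motif only elsewhere in the window 1.63 and 1.56 RPM, and of the 32 without a motif 2.07 and 2.003 RPM.

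The motif lay near the densest place in 21 of ranks 1 to 25 (84%), in 12 of ranks 26 to 50 (48%), in 28 of ranks 51 to 100 (56%), in 62 of ranks 101 to 200 (62%) and in 71 of ranks 201 to 326 (56.3%). Past the first 25 the share did not follow the rank, and over the 100 highest it was 61% against 59.5% of all called. The 4 of the 25 highest without one near were *Capns1*, *Trex1*, *Olfr433* and *Arhgdib*. Among the 100 highest 14 held no motif anywhere in the window, and *Trex1*, *Ccr1*, *Tnf*, *Dock2* and *Fasl* are among these. At *Tnf* and *Dock2* the place with most reads within 5 kb was centred 600 and 650 bp after the start, outside the window.

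Other motifs were counted in the same windows. The AP-1 motif, TGACTCA or TGAGTCA (each the reverse complement of the other), was present in 24.2% of the called and 16.8% of the other CpG-poor windows, against 12.1% of all promoters. It lay near the densest place in 29 of the called, including *Capns1*, *Tnnt3* and *Fxyd4*. Of the 191 windows with an AP-1 motif near and no GATA motif near, 10 were called (5.24%, interval 2.54 to 9.42), of the 2783 with a GATA motif alone 6.29%, and of the 142 with both 19 (13.4%, interval 8.25 to 20.1), against 2.43% with neither. *Rdh1* and *Rdh16f1*, with overlapping windows, count as 2 of these 19. The 19 had a median of 3.68 and 2.48 RPM. The TATA box letters TATAAA, searched from 15 to 41 bp before the start, were found in 3.99% of the called and 5.09% of the other CpG-poor windows (2.54% of all promoters).

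Reads were denser at the motifs of called promoters than beside them. Over the 842 GATA motifs in them the mean signal within 60 bp was 1.41 and 1.38 times that 300 to 400 bp away, over the 556 copies of the reversed letters 1.17 and 1.22 times, and over the 89 AP-1 motifs 1.74 and 1.73 times. The call favours a ratio above 1 for any letters in called windows, since these were chosen by their reads. In promoters not called the ratio was 1.09 and 1.03 for the GATA motif and 1.03 and 1.02 for the reversed letters. The centre of the densest 200 bp within 5 kb of the start lay inside the window in 222 of the 326 called promoters (68.1%). The call favours this share because it compares the window with its surroundings. In the other 104 a denser place was centred outside. In 65 of the 326 the densest place inside the window was at its edge (390 bp or more from the start). Part of the called signal therefore lay on the flank of denser sequence beside the promoter.

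**Figure D5:**
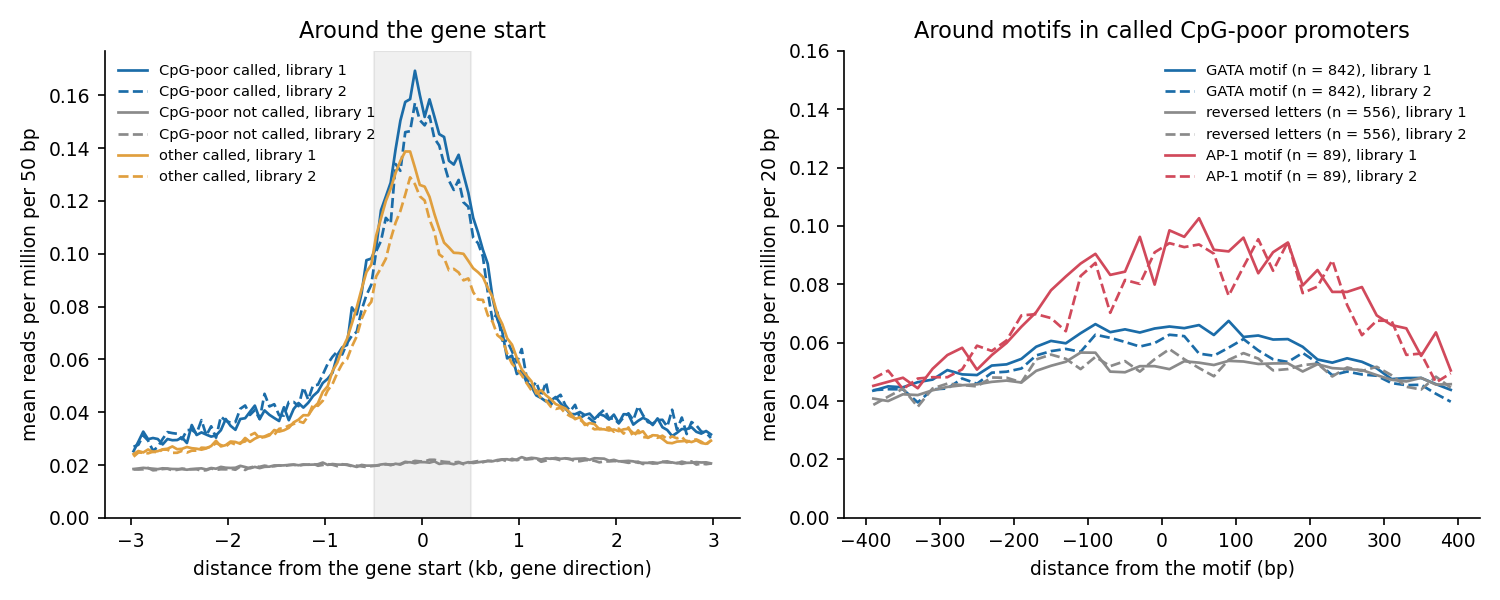
Left, mean RPM per 50 bp by distance from the gene start (kb, in the gene's direction; window shaded) in called CpG-poor, not called CpG-poor and called other promoters, with library 1 solid and library 2 dashed. Right, mean RPM per 20 bp around the GATA motif, the reversed letters and the AP-1 motif in called CpG-poor promoters. Signal at the motif is 1.41 and 1.38 times the flank for GATA, 1.17 and 1.22 times for the reversed letters and 1.74 and 1.73 times for AP-1.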

How the data were processed

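According to the study's methods, single reads were aligned by the authors with Bowtie2 (2.3.5.1, build GRCm38), and those without a unique place were discarded. The submitters' processing notes also list MACS2 (2.1.2), and no peak file was used here. Each deposited line gives where a read lies, on which strand, and the aligner's score for that placement (22 to 44), which does not measure binding. No 2 reads of a library share a 5′ end and strand, which caps the height of a peak.

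For the present text 5′ ends were moved 100 bp towards 3′ and counted in each window. RPM is scaled to 40504814 and 24959052 reads. Starts were the outermost end of each gene's record in GENCODE M21, which need not be the main start. Sequence and patches came from RefSeq's copy of GRCm38. Each window was tested alone in each library as described above, with Benjamini-Hochberg adjustment, and the calling was tested on simulated data. Intervals are 95% exact (Clopper-Pearson, Poisson) and cover counting error only. Shares were described without a test, since promoters are not replicates. The p-values behind the calls compare a window with its own library.

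The genes named are the 25 of highest signal, the immune-list genes among the 100 highest, in each immune list the 2 highest and the lowest, 7 genes of interest to the study (*Il4*, *Il5*, *Il13*, *Gata3*, *Itgav*, *Itgb3*, *Cd4*) and the 6 at the CpG limit. Called list members outside this rule, *Il2ra*, *Cd28*, *Icos*, *Ctla4*, *Slfn1* and *Slfn2* were named after their values had been seen. Some genes that this rule names are not reported here. The members, the 13 gene lists and the 28 families were chosen with earlier results of these data known. Alternatives were 2 stricter calls, no smallest fold, 2 backgrounds, 2 window sizes, no shift, 2 CpG limits, a mapping quality of at least 30, thinning of library 1, other starts, other motif definitions, subsets of windows and each library alone. Python 3.11.15, NumPy 2.4.6, SciPy 1.17.1, pandas 2.3.3, Numba 0.67.0 and Matplotlib 3.10.9 were used.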

Additional observations from a re-analysis of the deposited data

How the results depend on the processing

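The number of CpG-poor promoters called was 142 with a q of 1e-10, 153 with at least 3-fold and 623 with the library mean as the only background, in place of 326. Their share (4.01%) was then 1.75%, 1.88% and 7.66%, that of other promoters (16.1%) 5.91%, 6.82% and 30.4%, and the difference in percentage points between promoters with and without a GATA motif (2.27) was 0.9002, 0.983 and 3.03. Without a smallest fold the shares were 4.88% and 20.3%. The share of CpG-poor promoters was 3.69% with a background of 5 kb, 3.16% and 3.65% with windows of 250 bp and 1 kb either side, 3.25% and 4.76% below a CpG of 0.3 and 0.5, 4.70% without odorant and vomeronasal receptors, 5.08% in windows at least 90% unique and 5.16% with patches counted. With 250 bp the share of other promoters was 12.7%. The motif difference was 1.25 with 1 kb, 3.03 without the receptors, 0.423 for the reversed letters and 4.10 for a motif near the densest place. The median signal (0.436 RPM as the mean of the libraries) was 0.216 and 0.856 with 250 bp and 1 kb, 0.413 and 0.458 with the 2 CpG limits, 0.470 without the receptors, and 0.498 and 0.503 in unique windows. With 1 library left out the share ranged from 5.72% to 5.95%, that of other promoters from 20.3% to 24.97%, the motif difference from 2.46 to 3.33 and the median from 0.420 to 0.441. The cause was not tested where a value moved for a reason other than the setting's own construction.

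In every setting run, 3.25 to 4.69 times as large a share of other promoters as of CpG-poor promoters was called. The difference for the GATA motif stayed above 0. That for the reversed letters, which are not the motif, was above 0 as well (0.423). The number of immune-list genes among the 100 highest was 23 to 33 (31 as reported). Of the 51 named promoters called, 8 lost the call with 3-fold (among them *Fasl*, *Gpr171*, *Ptpn22*, *Lcp2*, *Il4*, *Epx* and *Trpt1*), 4 with a q of 1e-10, 4 with 1 kb, 3 with a background of 5 kb, 2 with 250 bp, 2 with starts of principal transcripts and 1 without the shift. With starts of principal transcripts, 48 of the 51 and 23 of the 25 highest were still CpG-poor. *Trpt1* lost the call with 3-fold, a q of 1e-10, 250 bp, 1 kb and no shift. *Gbp3* lost it with a q of 1e-10, *Gbp5* and *Ptpn22* with starts of principal transcripts, and *Fasl* and *Ptpn22* with 1 kb. *Cd4*, *Lta*, *Batf*, *Pou2af1* and *Rag2* were called against the library mean. No paired analysis was possible because both libraries belong to the same condition. Depth, unplaceable sequence and removed duplicates limit what a window not called can show.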
